A study of Bos taurus with 31 samples.

Results

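The insulin-like growth factor (IGF) axis was followed in fetal bovine liver through 6 genes: the ligands IGF1 (ENSBTAG00000011082) and IGF2 (ENSBTAG00000013066), the receptors IGF1R (ENSBTAG00000021527) and IGF2R (ENSBTAG00000002402), the binding protein IGFBP2 (ENSBTAG00000005596), and the growth hormone receptor GHR (ENSBTAG00000001335). The rule lists their Ensembl identifiers and sets no threshold on a measured value. The count table holds 27607 genes, of which 14228 had enough reads to be tested. All 6 genes were present and all 6 passed that filter.

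RNA was sequenced from the liver of 31 female Bos taurus fetuses at day 83 of gestation, each carried by a separate Angus-cross heifer, and a single sire was used. NoVTM_LG dams (n = 8) received no vitamin and mineral premix and were fed for a low gain of 0.28 kg per day. VTM_LG dams (n = 8) had the same low gain and were given the premix in 0.45 kg of ground corn carrier daily, begun 71 to 148 days before insemination. NoVTM_MG dams (n = 8) received no premix, and a starch-based protein and energy supplement from breeding onwards, which set a moderate gain of 0.79 kg per day. VTM_MG dams (n = 7) received the premix and the protein and energy supplement. All groups shared the basal mixed ration. In what follows, supplementation and the premix mean the premix with its ground corn carrier, and not the protein and energy supplement. NoVTM dams are recorded with no carrier, so the premix and its carrier cannot be told apart. The comparisons asked whether the dam's supplementation, her rate of gain, or their combination altered gene expression in the fetal liver.

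As background, IGF2 is the main growth-promoting IGF before birth, and the fetal liver is a major source of it. IGF1R is the tyrosine kinase receptor through which both ligands signal, whereas IGF2R, the cation-independent mannose 6-phosphate receptor, takes IGF2 up for degradation in lysosomes. In cattle IGF2 is expressed mainly from the paternal allele and IGF2R mainly from the maternal allele in many fetal tissues. Binding proteins such as IGFBP2 hold the ligands in the circulation and at cell surfaces. GHR carries the growth hormone signal that drives hepatic IGF1 after birth, and this control is weak in early fetal life.

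Libraries held 13062894 to 18458776 counts, and levels are given as CPM, counts scaled to a library size adjusted by the trimmed mean of M values (TMM). A CPM value takes no account of transcript length, so levels are compared between fetuses and not between genes. VTM_LG replicates 4 and 7 stood apart from the other 29 libraries: on the first principal component of all tested genes they lay at 63.0 and 37.9, and the others between -20.2 and 6.69. Some fold changes are also given without them. In a bulk sample, fewer cells of a type and less RNA per cell cannot be told apart. The liver label was not checked against hepatocyte or blood cell markers, because the identifiers could not be paired with symbols.

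None of the 6 genes passed an adjusted p of 0.05 in edgeR's quasi-likelihood test of any difference among the 4 groups, where 0% of all tested genes passed. Their adjusted p-values in that test ran from 0.644 for IGF1 to 0.949 for IGF2R. Unadjusted, 0 of 6 had a p under 0.05, against 7.99% of all tested genes. The ratio of the highest to the lowest group mean was 1.505 for IGF1, 1.13 for IGF2, 1.13 for IGF1R, 1.07 for IGF2R, 1.19 for IGFBP2 and 1.14 for GHR. For each gene the lowest maximum of any group lay above the highest minimum of any group, so every group overlapped every other.

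**Figure D1:**
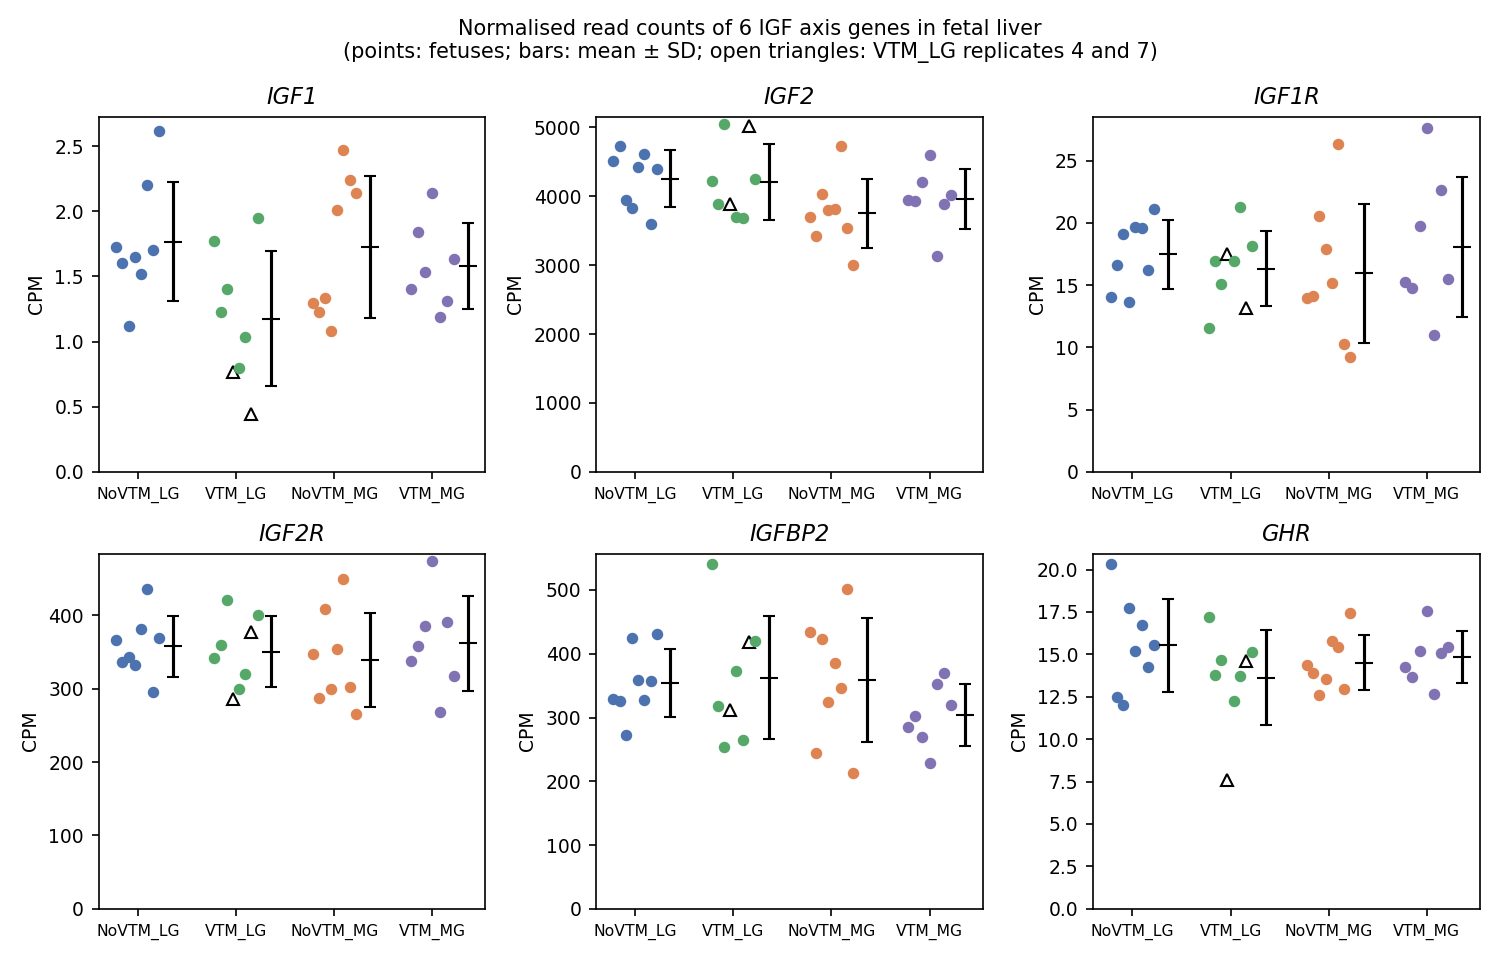
Normalised read count (CPM, axis from 0) of each gene in each of 31 fetuses, by group, with the group mean ± SD beside the points; open triangles mark VTM_LG replicates 4 and 7. The groups overlap for every gene, the lowest IGF1 values (0.769 and 0.444 CPM) belong to the 2 marked fetuses, and GHR was lowest in VTM_LG replicate 4 (7.61 CPM).

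IGF2, the principal fetal ligand, took 0.406% ± 0.0569 of all counts (SD, n = 31) and averaged 4049 ± 500 CPM. In NoVTM_LG fetuses it ran from 3604 to 4730 CPM with a median of 4417. VTM_LG fetuses ran from 3679 to 5056 CPM with a median of 4059. The highest of all 31 was VTM_LG replicate 3, followed by VTM_LG replicate 7 at 5018 CPM. In NoVTM_MG the range was 3009 to 4736 CPM and the median 3746, and in VTM_MG it was 3132 to 4593 CPM and 3952. The means in the order NoVTM_LG, VTM_LG, VTM_MG and NoVTM_MG were 4258 ± 407, 4213 ± 551, 3958 ± 439 and 3755 ± 501 CPM (SD). The gaps between neighbours in this order, 44.6, 256 and 202 CPM, were each smaller than the smallest group SD.

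The low-gain groups thus held the higher IGF2 means. Pooled over supplementation, IGF2 averaged 4236 ± 469 CPM in LG fetuses (SD, n = 16) and 3850 ± 468 CPM in MG fetuses (SD, n = 15), and 13 of 15 MG fetuses lay below the LG median. The edgeR log2 fold change for gain was -0.14 (SE 0.0633, unadjusted p = 0.0395), and it did not pass after adjustment over all genes (adjusted p = 0.625). Without VTM_LG replicates 4 and 7 it was -0.12 (unadjusted p = 0.0578 in edgeR). IGF2 was 1 of 6 genes of the axis with an unadjusted p under 0.05 for gain, where 7.82% of all tested genes had one. At the adjusted threshold 0 of 6 passed, against 0.0211% of all tested genes. The 95% interval of the IGF2 fold change was 0.832 to 0.995, which holds no drop below 0.832 of the LG level.

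The IGF2 estimate for gain was farther from 0 without the premix. Between NoVTM_MG and NoVTM_LG IGF2 missed the adjusted threshold in edgeR (-0.18 on the log2 scale, SE 0.088, unadjusted p = 0.0473, adjusted p = 1.00), in a contrast where 4.59% of all genes had an unadjusted p under 0.05 and 0% passed. It stood at -0.14 without NoVTM_MG replicate 8 and at -0.24 without NoVTM_MG replicate 6, the fetuses with the lowest and the highest IGF2 of that group. With the premix, VTM_MG against VTM_LG, edgeR gave -0.09 on the log2 scale (SE 0.0911, adjusted p = 0.66). The test of the difference between these effects, the interaction, gave 0.09 on the log2 scale (SE 0.127, adjusted p = 0.808 in edgeR), and 0.17 in limma voom, so a dependence on the premix was not shown. For supplementation averaged over gain the IGF2 log2 fold change was 0.03, with a fold interval of 0.934 to 1.12, and it was 0.016 without VTM_LG replicates 4 and 7.

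IGF1, the ligand that takes over growth control after birth, had few reads at this stage. Its counts ran from 7 to 36 per library, a mean of 22.9. An exact 95% Poisson interval, which covers counting error only, was 2.81 to 14.4 counts for the lowest library and 25.2 to 49.8 for the highest. Counting alone gives a coefficient of variation of 20.9% at the mean count, and the observed coefficient of variation within groups was 30.3%. Low depth therefore limits what can be said of single fetuses for this gene.

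In NoVTM_LG fetuses IGF1 ran from 1.12 to 2.62 CPM with a median of 1.68, and in NoVTM_MG fetuses from 1.08 to 2.47 CPM with a median of 1.67. VTM_MG fetuses ran from 1.19 to 2.14 CPM with a median of 1.53. VTM_LG fetuses were lower, from 0.444 to 1.95 CPM with a median of 1.13, and held the 4 lowest values of all 31 fetuses: 0.444 CPM in replicate 7, 0.769 in replicate 4, 0.799 in replicate 5 and 1.04 in replicate 6. The group means, from the highest, were 1.77 ± 0.455 in NoVTM_LG, 1.72 ± 0.545 in NoVTM_MG, 1.58 ± 0.329 in VTM_MG and 1.18 ± 0.517 CPM in VTM_LG (SD). The gap between VTM_LG and its neighbour, 0.403 CPM, was larger than the SD of VTM_MG and smaller than the SD of VTM_LG.

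Averaged over gain, IGF1 was 1.75 ± 0.485 CPM without the premix (SD, n = 16) and 1.36 ± 0.473 CPM with it (SD, n = 15), and 11 of 15 VTM fetuses lay below the NoVTM median. The edgeR log2 fold change for supplementation was -0.35 (SE 0.166, unadjusted p = 0.0403, adjusted p = 1.00). In this contrast 0 of 6 genes of the axis passed, against 0% of all tested genes. At an unadjusted p under 0.05 the count was 1 of 6, against 2.9% of all tested genes. At low gain the difference was -0.59 (SE 0.234, unadjusted p = 0.0166, adjusted p = 0.601 in edgeR), against 8.25% of all genes with an unadjusted p under 0.05. VTM_LG was also lower than NoVTM_MG, with an edgeR log2 fold change of -0.55 (SE 0.235, unadjusted p = 0.0259, adjusted p = 0.532), in a contrast where that share was 8.94%. These contrasts share the VTM_LG libraries.

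The IGF1 difference was smaller without the libraries that stood apart, which held the 2 lowest IGF1 values. Without VTM_LG replicates 4 and 7 the IGF1 mean of VTM_LG was 1.36 ± 0.437 CPM (SD, n = 6). The edgeR log2 fold change against NoVTM_LG then was -0.38 (unadjusted p = 0.102), that against NoVTM_MG -0.33 (unadjusted p = 0.147), and that for supplementation averaged over gain -0.25 (unadjusted p = 0.117). With 1 library left out, the edgeR log2 fold change of VTM_LG against NoVTM_LG was -0.46 without replicate 7 and -0.53 without replicate 4. It was also -0.53 without VTM_LG replicate 5, which was low in IGF1 but did not stand apart. The part of these libraries in the result was not tested further. At moderate gain, VTM_MG against NoVTM_MG, edgeR gave -0.12 for IGF1 on the log2 scale (SE 0.236, adjusted p = 0.971). The interaction was 0.47 (SE 0.332, adjusted p = 0.61 in edgeR), with an interval of -0.20 to 1.15 that holds 0. Without VTM_LG replicates 4 and 7 it was 0.26 (unadjusted p = 0.408 in edgeR).

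**Figure D2:**
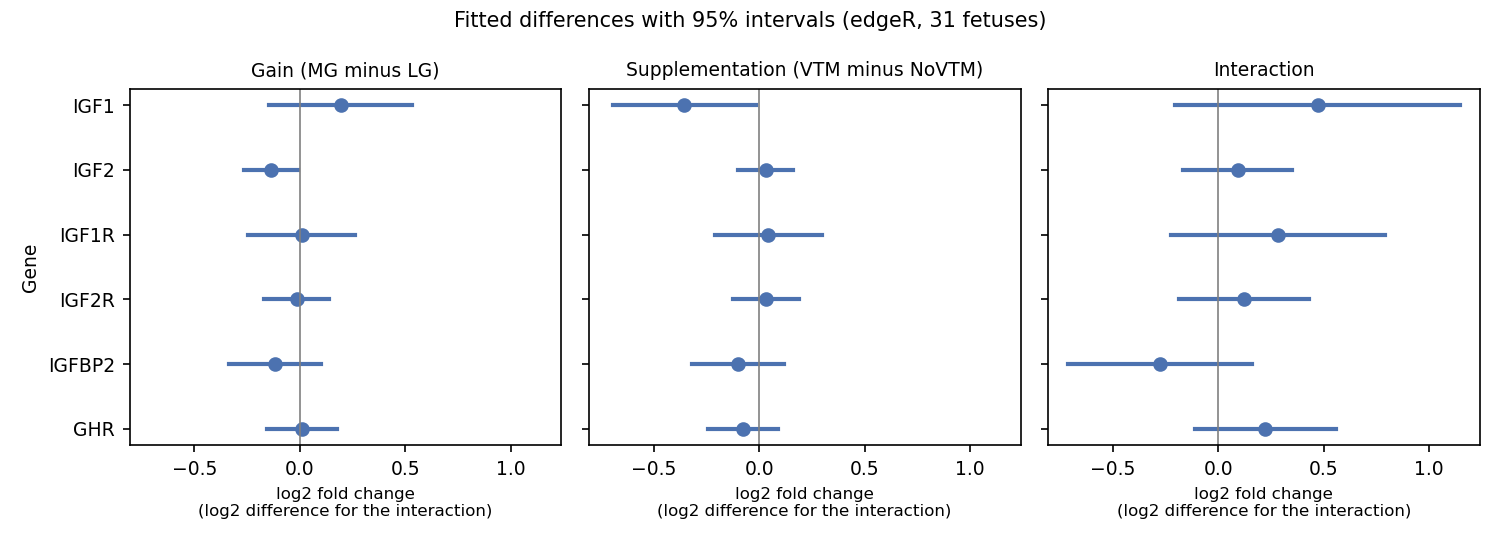
Fitted log2 differences (points) with 95% intervals (bars) from edgeR for each gene: gain, supplementation and their interaction, over 31 fetuses. The gain interval of IGF2 and the supplementation interval of IGF1 lie just below 0 before adjustment for multiple testing, the other 16 intervals include 0, and the widest belong to IGF1.

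GHR, which stands upstream of IGF1 in postnatal liver, averaged 14.6 ± 2.28 CPM over all fetuses (SD, n = 31). It ran from 12.0 to 20.3 CPM in NoVTM_LG with a median of 15.4, and from 7.61 to 17.2 CPM in VTM_LG with a median of 14.2. In NoVTM_MG it ran from 12.6 to 17.4 CPM with a median of 14.1, and in VTM_MG from 12.7 to 17.6 CPM with a median of 15.1. VTM_LG replicate 4 lay far below the rest, at 99 counts, whereas the other 30 fetuses were all at 12.0 CPM or above. The order of the means was NoVTM_LG (15.5 ± 2.74), VTM_MG (14.8 ± 1.55), NoVTM_MG (14.5 ± 1.61) and VTM_LG (13.6 ± 2.81 CPM), and every gap between neighbours was smaller than the smallest group SD.

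For GHR the largest pairwise difference was between VTM_LG and NoVTM_LG, an edgeR log2 fold change of -0.19 (SE 0.114, adjusted p = 0.646). It was -0.10 without VTM_LG replicates 4 and 7. For gain the log2 fold change was 0.01, with a fold interval of 0.898 to 1.13, and for supplementation -0.08, with a fold interval of 0.845 to 1.06. Without VTM_LG replicates 4 and 7 these log2 fold changes were -0.031 and -0.035. The GHR interaction was 0.22 (SE 0.164, adjusted p = 0.619 in edgeR), and 0.14 without those libraries. IGF1 and GHR were thus both lowest on average in VTM_LG, and VTM_LG replicate 4 was low in both, while VTM_LG replicate 7 was low in IGF1 (0.290 of the median of all fetuses) and at the median in GHR.

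IGF1R, the signalling receptor, averaged 16.9 ± 4.28 CPM (SD, n = 31). NoVTM_LG fetuses ran from 13.6 to 21.1 CPM with a median of 17.8, and VTM_LG fetuses from 11.6 to 21.3 CPM with a median of 16.9. The moderate-gain groups were wider: NoVTM_MG ran from 9.23 to 26.3 CPM with a median of 14.7, and VTM_MG from 11.02 to 27.6 CPM with a median of 15.5. The SD was 5.51 CPM in MG fetuses and 2.87 CPM in LG fetuses, around means of 16.9 CPM in each, and this difference in spread was not tested. The means, from VTM_MG (18.1 ± 5.62) through NoVTM_LG (17.5 ± 2.78) and VTM_LG (16.3 ± 3.02) to NoVTM_MG (15.9 ± 5.59 CPM), differed between neighbours by less than the smallest SD.

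The largest pairwise difference of IGF1R was between VTM_MG and NoVTM_MG, 0.18 on the log2 scale (SE 0.179, adjusted p = 0.956 in edgeR). The fold interval was 0.844 to 1.20 for gain and 0.864 to 1.23 for supplementation. The sign of the gain estimate, 0.01, turned in limma voom and without VTM_LG replicates 4 and 7.

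IGF2R, the receptor that clears IGF2, averaged 352 ± 52.8 CPM (SD, n = 31). It ran from 295 to 436 CPM in NoVTM_LG with a median of 355, from 286 to 420 in VTM_LG with a median of 350, from 265 to 449 in NoVTM_MG with a median of 325, and from 269 to 474 in VTM_MG with a median of 357. The lowest fetus, NoVTM_MG replicate 8, was also the lowest of all in IGF2, IGF1R and IGFBP2. The highest, VTM_MG replicate 4, was also the highest in IGF1R. The order of the means was that of IGF1R: VTM_MG (362 ± 64.7), NoVTM_LG (357 ± 41.6), VTM_LG (351 ± 47.9) and NoVTM_MG (339 ± 63.4 CPM), with every gap between neighbours below the smallest SD.

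For IGF2R the largest pairwise difference was that of VTM_MG against NoVTM_MG, 0.09 on the log2 scale (edgeR, SE 0.11, adjusted p = 0.956). The fold intervals were 0.889 to 1.10 for gain and 0.919 to 1.14 for supplementation. The interaction was 0.12 (SE 0.152, adjusted p = 0.783 in edgeR).

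IGFBP2, a binding protein that is abundant in fetal serum, averaged 346 ± 77.8 CPM (SD, n = 31). NoVTM_LG fetuses ran from 272 to 431 CPM with a median of 343, and VTM_LG fetuses from 254 to 541 CPM with a median of 346. In NoVTM_MG the range was 213 to 502 CPM and the median 366. VTM_MG fetuses ran from 229 to 369 CPM with a median of 302, so their highest value was the lowest maximum of the 4 groups. The means were 363 ± 95.9 in VTM_LG, 359 ± 97.6 in NoVTM_MG, 354 ± 53.4 in NoVTM_LG and 304 ± 48.3 CPM in VTM_MG (SD). The gaps between neighbours among the first 3 were 3.56 and 5.58 CPM. The step down to VTM_MG was 49.8 CPM, just over the SD of VTM_MG and below those of the other groups.

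IGFBP2 was lower in VTM_MG than in VTM_LG in the edgeR estimate (log2 fold change -0.26, SE 0.155, unadjusted p = 0.107, adjusted p = 0.435), which did not pass and was -0.17 in limma voom. Against NoVTM_MG it was -0.24 and against NoVTM_LG -0.22, with adjusted p-values of 0.955 and 1.00 in edgeR. These comparisons share the VTM_MG libraries. The interaction of -0.28 (SE 0.215, adjusted p = 0.635 in edgeR) had the opposite sign to that of the other 5 genes, and was -0.13 in limma voom. No member passed for the interaction, where 0% of all tested genes passed. Over all 31 fetuses, the median interaction of the 6 genes was 0.17, beside 0.00 over all tested genes.

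Across the 6 pairwise contrasts, 0 of the 36 tests of these genes passed after adjustment, and each contrast had 0% of all tested genes past the threshold. At an unadjusted p under 0.05 the 3 contrasts with VTM_MG held 0 of 6 genes each, against 2.85% of all tested genes for NoVTM_LG as the other group, 14.8% for VTM_LG and 4.57% for NoVTM_MG. The interaction held 0 of 6, against 10.7%. The median log2 fold change of the 6 genes was 0.00 for gain and -0.02 for supplementation, beside 0.00 and 0.00 over all tested genes. In absolute size the medians were 0.07 for gain and 0.06 for supplementation, beside 0.07 and 0.05 over all tested genes. For the interaction the median absolute size was 0.25, beside 0.15 over all tested genes. All these medians include VTM_LG replicates 4 and 7. Without them the interactions were 0.26 (IGF1), 0.12 (IGF2), 0.25 (IGF1R), 0.096 (IGF2R), -0.27 (IGFBP2) and 0.14 (GHR). The median over all tested genes was not computed without them.

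The genes differed in how much fetuses of a group varied. The biological coefficient of variation, edgeR's estimate of the spread beyond counting error, was 12.2% for IGF2, 14.7% for GHR, 14.9% for IGF2R, 20.8% for IGFBP2, 23.6% for IGF1R and 24.1% for IGF1. The median of all tested genes was 13.9%. IGF2 lay at the 38.6th percentile of tested genes, GHR and IGF2R at the 54.6th and 55.6th, and IGFBP2, IGF1R and IGF1 at the 75.6th, 81.7th and 82.8th. IGF2 was the steadiest of the 6, and the estimate for IGF1R lay above that for IGF2R.

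Some of the genes varied together from fetus to fetus. Of the 15 pairs of genes, 4 were correlated across the 31 fetuses in log2 CPM, and all 4 correlations were positive. The tests were two-sided permutation tests with 100000 resamples, adjusted over the 15 pairs. The share of all pairs of tested genes that would pass was not computed. Over all tested genes, IGF1R had an r above 0.8 with 55 genes, IGF2R with 21 and IGF2 with 4. IGF1, IGFBP2 and GHR had 0 such genes each. Libraries were scaled together, and genes that share a cell type or a technical gradient vary together in such data. No correlation of the 6 genes with the total count of the library passed (r from -0.30 to 0.05, smallest adjusted permutation p = 0.321 over 6 tests). That check covers sequencing depth only. Other gradients between libraries, among them the TMM scaling factor, were not tested against these genes.

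IGF2 and IGF2R, the ligand and its clearance receptor, were the most closely correlated pair. Pearson's r was 0.796 and Spearman's rho 0.781, each with a permutation p of 1e-05, the smallest that the resamples can give (adjusted p = 0.00015). The r was 0.835 after removal of the group means, 0.828 without VTM_LG replicates 4 and 7, and 0.751 without NoVTM_MG replicate 8 and VTM_LG replicate 3, the fetuses farthest from the median of IGF2. Within groups it was 0.722 (NoVTM_LG), 0.780 (VTM_LG), 0.918 (NoVTM_MG) and 0.881 (VTM_MG), over 7 or 8 fetuses each. Among all 14227 other tested genes, ordered from the highest signed r, IGF2R had rank 5 in correlation with IGF2, and rank 1 without VTM_LG replicates 4 and 7. The median gene had an r of -0.03. Seen from IGF2R, 21 tested genes had an r above 0.8 and so lay above IGF2. Without VTM_LG replicates 4 and 7, 66 genes had an r above 0.8 with IGF2R.

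The number of IGF2 counts per IGF2R count was 11.6 ± 1.05 over all fetuses (SD, n = 31), a coefficient of variation of 9.07% beside 12.4% for IGF2 and 15.01% for IGF2R in CPM. It had a lowest value of 9.70 and a highest of 14.0. It averaged 12.0 ± 0.996 in LG fetuses (SD, n = 16) and 11.1 ± 0.932 in MG fetuses (SD, n = 15). At low gain it was 12.0 ± 0.997 without the premix and 12.1 ± 1.06 with it. At moderate gain it was 11.2 ± 0.9 without and 11.1 ± 1.04 with it. The low-gain groups were higher on average with and without the premix, and their ranges overlapped with those at moderate gain. Without VTM_LG replicates 4 and 7 the mean ratio of VTM_LG was lower, at 11.6 ± 0.76 (SD, n = 6). This ratio was formed after the values were seen and is given as a description.

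**Figure D3:**
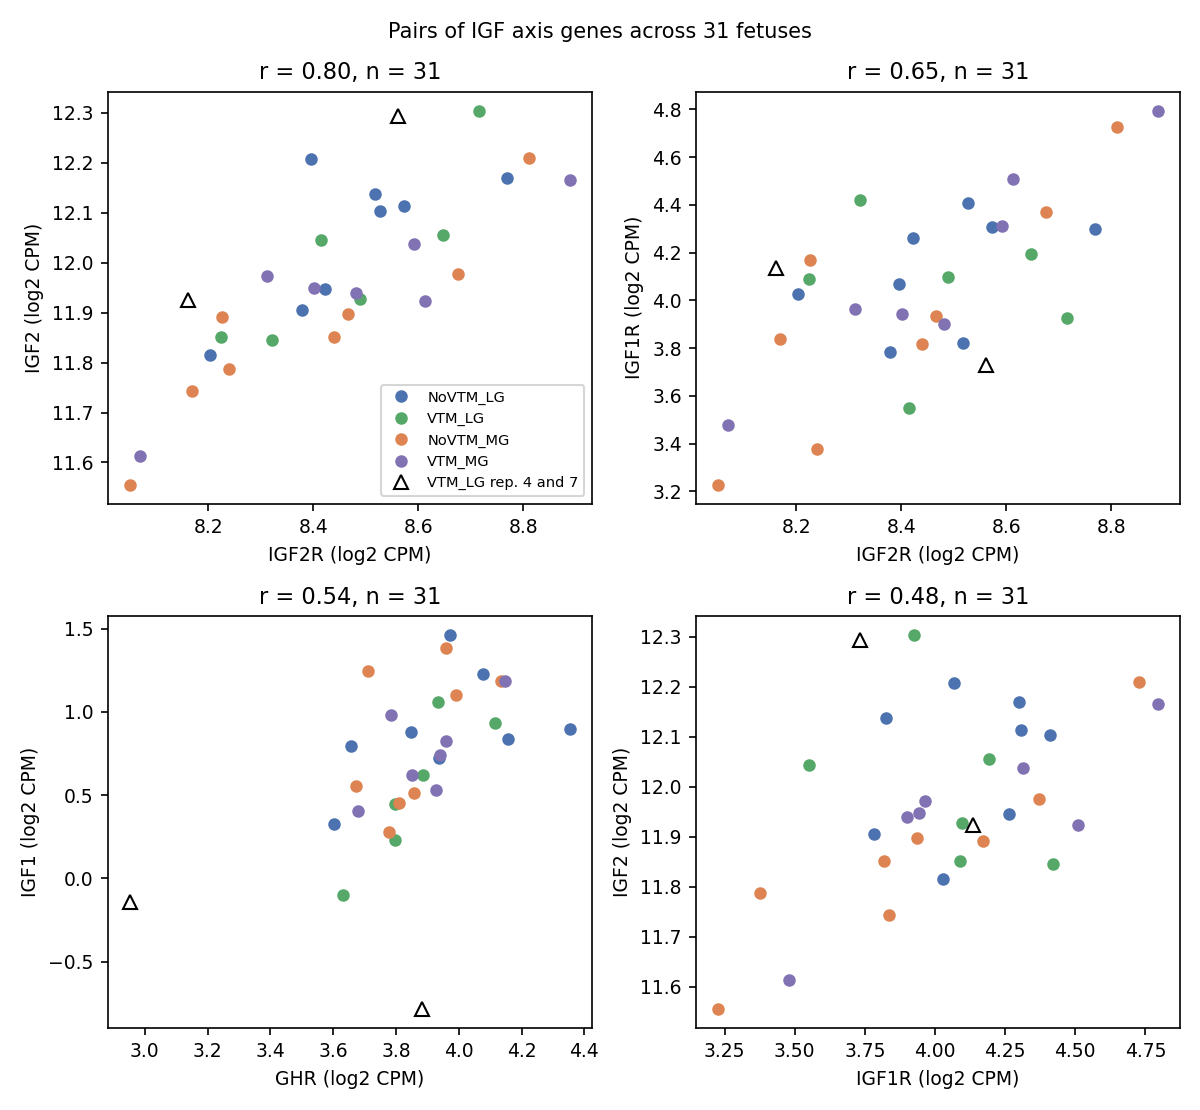
Log2 CPM of 4 pairs of genes, each point a fetus coloured by group, with open triangles for VTM_LG replicates 4 and 7. IGF2 rises with IGF2R across all groups (r = 0.80), IGF1R rises with IGF2R (r = 0.65), IGF1 rises with GHR (r = 0.54) with the 2 marked fetuses at its lower edge, and IGF2 with IGF1R is the most scattered (r = 0.48).

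The receptors IGF1R and IGF2R were correlated with each other (r = 0.648, permutation p = 1e-04, adjusted p = 0.00075, rho = 0.545 with an adjusted permutation p of 0.00875). The r was 0.515 without NoVTM_MG replicate 8 and VTM_MG replicate 4, the fetuses at the ends of both ranges (adjusted permutation p = 0.021). Within groups it was 0.837 in NoVTM_MG and 0.958 in VTM_MG, and 0.473 in NoVTM_LG and -0.276 in VTM_LG. Among all other tested genes, 1.81% had a positive r with IGF2R at least as high as that of IGF1R.

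IGF1 and GHR were correlated as well, with an r of 0.536 (permutation p = 0.00409, adjusted p = 0.0204) and a rho of 0.64 (adjusted permutation p = 0.0015). The fetuses farthest from the IGF1 median were VTM_LG replicates 7 and 4, and without them r was 0.569 (adjusted permutation p = 0.0101). Within VTM_MG it was 0.679 and within NoVTM_MG 0.522, and at low gain it was 0.464 without the premix and 0.451 with it. In the 31 fetuses 3.04% of other tested genes had a positive r with IGF1 at least as high as that of GHR, and in the 29 it was 0.148%.

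IGF2 and IGF1R gave an r of 0.482 (permutation p = 0.00607, adjusted p = 0.0228). It passed on residuals from the group means (r = 0.480, adjusted permutation p = 0.0282) and without VTM_LG replicates 4 and 7 (r = 0.578, adjusted permutation p = 0.00495). The call, though not the size of r, rested on the fetuses at the ends of the IGF2 range. Spearman's rho was 0.357 (adjusted permutation p = 0.148), and r was 0.429 without NoVTM_MG replicate 8 and VTM_LG replicate 3 (adjusted permutation p = 0.0615). Within groups it was 0.924 in NoVTM_MG, 0.832 in VTM_MG, 0.304 in NoVTM_LG and -0.602 in VTM_LG. IGF2 and IGF1R thus rose together among moderate-gain fetuses and not among VTM_LG fetuses, a difference that was not tested. Of the other tested genes, 3.99% had a positive r with IGF2 at least as high as that of IGF1R. Without VTM_LG replicates 4 and 7 this share was 3.15%.

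The other 11 pairs did not pass. IGF1 and IGF2, the 2 ligands, gave an r of 0.05 (adjusted permutation p = 0.897), and 0.316 without VTM_LG replicates 4 and 7 (adjusted permutation p = 0.205), where replicate 7 had low IGF1 and high IGF2. IGF2R and GHR gave an r of 0.388 (adjusted permutation p = 0.0875). No pair with IGFBP2 passed, with r between -0.18 and 0.10 for its 5 partners.

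**Figure D4:**
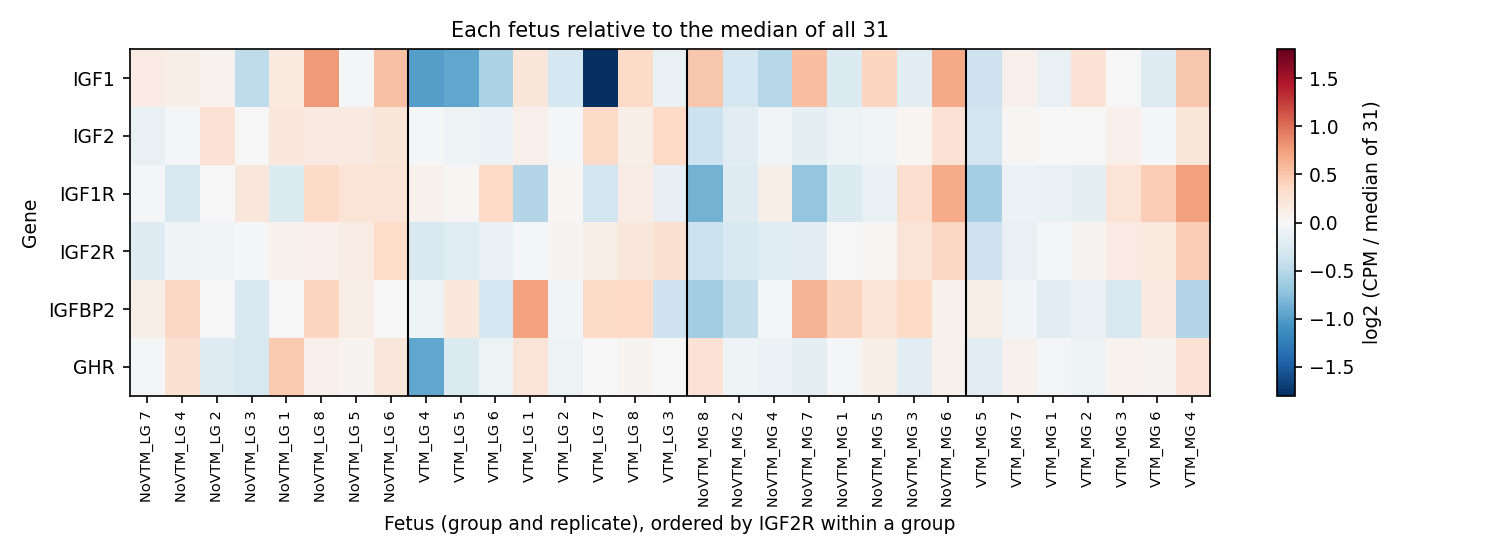
Log2 ratio of the CPM of each fetus (columns, by group and ordered by IGF2R within a group) to the median of all 31, for each gene (rows); red is above and blue below the median. IGF2, IGF1R and IGF2R are low together in NoVTM_MG replicate 8 and VTM_MG replicate 5, IGF1R and IGF2R are high together in NoVTM_MG replicate 6 and VTM_MG replicate 4, and the deepest blue is IGF1 in VTM_LG replicate 7.

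The tested gene most like each member in log2 CPM over the 31 fetuses was also found. For IGF2R it was ENSBTAG00000054572 (r = 0.927, and 0.935 without VTM_LG replicates 4 and 7). For IGF1R it was ENSBTAG00000024199 (r = 0.890 and 0.894), and for IGF2 it was ENSBTAG00000017380 (r = 0.837 and 0.815). IGFBP2 had no gene above an r of 0.656, reached by ENSBTAG00000008255 (0.652 without those libraries). For IGF1 and GHR the most similar genes, ENSBTAG00000013048 (r = 0.764) and ENSBTAG00000017069 (r = 0.757), rested on the libraries that stood apart: without them the r was 0.55 and 0.519. These are descriptions of the highest of 14227 values each. No symbol could be paired with these identifiers.

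In the RefSeq gene table of assembly ARS-UCD2.0, which may not be the build of the count table, IGF2 lies next to INS and overlaps MIR483. IGF2R overlaps the long non-coding RNA AIRN. IGFBP2 neighbours IGFBP5 and overlaps no listed gene. IGF1 and GHR each overlap 1 long non-coding RNA, and IGF1R overlaps 3 other genes, among them PGPEP1L. The libraries were strand-specific, but whether the counting used strand was not stated, so reads of an overlapping gene cannot be told apart from those of these 5 genes.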

How the data were processed

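Liver RNA of 31 fetuses was sequenced as strand-specific, paired-end reads, per the labels' protocols. The submitters' processing notes name CASAVA, FastQC 0.11.8, MultiQC 1.9, STAR 2.7.3a and edgeR, without roles. The sources used here do not give the genome build, the annotation, the counting program or its strand setting. The authors deposited raw counts per gene, which were used as deposited. Columns were matched to samples by title. Groups came from the treatment label. Replicate numbers follow accession order and are names only.

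Genes were kept by filterByExpr (minimum count 10, minimum total 15), scaled by TMM and fitted with 1 mean per group in edgeR 4.0.16 (R 4.3.3), with Benjamini-Hochberg adjustment over all 14228 tested genes within each contrast and a threshold of 0.05. Gain is MG minus LG, supplementation VTM minus NoVTM, and the interaction is the effect of gain with the premix minus that without it. Intervals are 95%. Log2 CPM used a prior count of 2. No batch is given in the labels. No 2 libraries matched within sampling noise (chi-square per degree of freedom of at least 6.6 over 465 pairs). Recovery of known changes was tested on simulated data, and DESeq2 1.42.0 and limma 3.58.1 were among the alternatives. Nothing in the labels says more of the replicates than that they are fetuses of separate dams.

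The members' symbols were given with their identifiers. The reference table of 37063 genes pairs 0 of them with Ensembl identifiers, so the planned lists of other pathway genes and of cell type markers were not run, and the genes named as most alike, 1 per member, are given by identifier. Pairwise contrasts were named where the unadjusted p was under 0.05 or the difference was the gene's largest; others are given beside them for comparison. The members, lists and tests were chosen with earlier results of these data known.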

Additional observations from a re-analysis of the deposited data

How the results depend on the processing

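No member of the axis passed an adjusted p of 0.05 under any setting tried: RLE scaling, no filter on low counts, more than 1 CPM in 7 libraries, DESeq2, limma voom with quality weights, only the groups compared (pairwise contrasts), without VTM_LG replicates 4 and 7, and each library left out in turn (0 to 0 in 31 fits for each of the 5 sets of tests). The count of correlated pairs was 3 to 4. Signs turned only where the main estimate lay near 0. The log2 fold change of IGF1R for gain, 0.01, was -0.10 in limma voom and -0.0063 without VTM_LG replicates 4 and 7. That of GHR, 0.01, was -0.031 without them, and the correlation of IGFBP2 and GHR, 0.02, was -0.035. The cause was not tested. With 1 library left out, the IGF1 difference for supplementation ran from -0.43 to -0.29 and that between VTM_LG and NoVTM_LG from -0.74 to -0.46, in each case without VTM_LG replicate 8 and replicate 7. The IGF2 difference for gain ran from -0.16 to -0.11. Its unadjusted edgeR p was under 0.05 in 17 of these 31 fits, as was that of IGF1 for supplementation. The correlation of IGF2R and GHR passed (r = 0.455, adjusted permutation p = 0.0404) without the 2 fetuses farthest from the IGF2R median. The edgeR log2 fold change of IGF1 for gain was 0.19, and 0.086 without VTM_LG replicates 4 and 7. Over all 31 fetuses its 95% interval reached 0.338 on either side of the estimate. IGF1 had both low counts and a biological coefficient of variation of 24.1%, and their parts in this width were not tested. No paired analysis was run, because each fetus came from a separate dam, and the labels give no replicate numbers.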
